A study of Rattus norvegicus with 7 samples.

Results

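The genes described here are regulators of the C/EBP and NF-kB transcription factor systems together with genes that feed back on them: Cebpa, Cebpb, Cebpd, Nfkb1, Nfkbia, Zfp36 and Birc3. They were taken as every probe set to which the platform annotation gives 1 of these 7 symbols. That found 12 probe sets for 6 genes, of 8740 probe sets and 4736 gene symbols on the array, and no probe set for Birc3. The genes were chosen with their signals by cell type and dose in view, so their values are a description and carry no test. The arrays measured RNA from primary hippocampal cultures of Wistar rats, labelled 17-day-old, after 24 h with or without a polyphenol-rich grape seed extract. The extract was given at 0, 1, 10 or 100 µg/ml to astrocytes and at 0, 1 or 10 µg/ml to neurons, in a medium with N1 supplement. Each of these 7 combinations was measured on 1 Affymetrix array, so a value at a single dose has no error, and the precision of every comparison is limited by that number.

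NF-kB factors are dimers held in the cytoplasm by inhibitor proteins until a signal such as a cytokine or a bacterial product causes the inhibitor to be degraded. The freed dimer switches on inflammatory genes and also the gene of its own inhibitor, which ends the response. C/EBP factors are leucine zipper proteins that bind many of the same inflammatory promoters, and in glia the beta and delta members are known for their induction by inflammatory stimuli. Tristetraprolin, the product of Zfp36, acts later, by binding AU-rich messenger RNAs such as that of tumour necrosis factor and hastening their decay.

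Promoters are shown for the inhibitor gene Nfkbia, for Nfkb1 and for Cebpb, the genes whose windows hold a marked match. Each runs from 250 bases before to 50 bases after the RefSeq start, read 5′ to 3′ on the gene's strand. Capitals mark matches to the NF-kB consensus and to the CRE core TGACG on either strand, where CRE is the element bound by CREB.
Nfkbia (GRCr8 chr6:78597023-78597322, minus strand): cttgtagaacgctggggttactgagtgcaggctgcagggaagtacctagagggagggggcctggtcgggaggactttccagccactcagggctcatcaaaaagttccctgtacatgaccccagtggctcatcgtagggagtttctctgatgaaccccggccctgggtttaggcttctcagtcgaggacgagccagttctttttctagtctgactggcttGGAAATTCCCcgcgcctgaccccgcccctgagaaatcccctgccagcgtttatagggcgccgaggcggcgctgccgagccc
Nfkb1 (GRCr8 chr2:226805413-226805712, minus strand): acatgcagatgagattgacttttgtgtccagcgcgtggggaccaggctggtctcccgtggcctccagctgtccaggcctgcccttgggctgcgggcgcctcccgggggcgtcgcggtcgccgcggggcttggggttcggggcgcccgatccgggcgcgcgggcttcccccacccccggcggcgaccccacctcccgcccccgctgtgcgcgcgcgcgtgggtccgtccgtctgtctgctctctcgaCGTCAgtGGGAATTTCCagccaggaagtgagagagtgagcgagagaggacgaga
Cebpb (GRCr8 chr3:176816755-176817054, plus strand): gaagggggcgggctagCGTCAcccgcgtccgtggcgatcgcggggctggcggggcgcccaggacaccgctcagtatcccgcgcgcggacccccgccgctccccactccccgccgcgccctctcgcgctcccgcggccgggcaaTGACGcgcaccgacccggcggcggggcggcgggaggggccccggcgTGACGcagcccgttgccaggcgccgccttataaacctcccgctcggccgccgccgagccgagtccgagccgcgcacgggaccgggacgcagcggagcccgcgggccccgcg
RefSeq promoters were matched for 5 of the 6 genes on the array, the exception being Cebpd. The Nfkbia and Nfkb1 windows each hold 1 match to the NF-kB consensus, and both matches are the same 10 bases, GGGAATTTCC. In Nfkbia it reads on the opposite strand at positions -31 to -22, counted from the annotated start as 1, and in Nfkb1 it lies just after the start, at 4 to 13. A consensus match was found in 7.51% of 33469 promoters of this length, and these exact 10 bases, a search added after the sequences were seen, in 0.0747% (25 promoters). No window of the 5 genes holds the C/EBP motif TTGCNNAA, the AP-1 motif TGANTCA or the full CRE TGACGTCA, present in 10.6%, 7.33% and 1.83% of all promoters. The Cebpb window holds 3 copies of the CRE core and the Nfkb1 window 1, a motif also added afterwards and present in 21.2% of promoters. Cebpb has no match to the NF-kB consensus. The Zfp36 and Cebpa windows, not shown, hold no match to any motif searched. A match describes the letters of these windows and does not show a bound site.

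The deposited arrays shared a common level (2%-trimmed means of 500.731 to 500.874). Relative to untreated astrocytes the median probe set changed by -0.10 log2 at 10 µg/ml and -0.26 at 100 µg/ml, so changes at 100 µg/ml are given relative to that median unless stated. The signals of 8 poly-A spike-in probe sets moved with dose: their median fold against the untreated array was 1.19, 1.90 and 2.63 in astrocytes at 1, 10 and 100 µg/ml, and 0.668 and 1.34 in neurons at 1 and 10 µg/ml. The control for 5S ribosomal RNA had a signal of 197.7 in astrocytes at 100 µg/ml, against 3.6 to 9.0 on the other arrays. The GAPDH 3′ to 5′ ratio was 1.90 there, against 2.42 to 3.24 elsewhere. That of actin was not lower there, at 10.6 against 8.92 to 10.8 elsewhere. Neuron markers matched the labels, with a summed signal of 725 to 1599 over 7 genes in astrocyte cultures and 16026 to 16871 in neuron cultures. The sum of astrocyte markers overlapped between the cultures (51028 to 56462 over 8 genes in astrocyte cultures, 53407 to 54871 in neuron cultures), with Vim, a filament gene not limited to astrocytes, the brightest. Single markers went both ways: at shared doses limma placed S100b higher in astrocyte cultures (2.01 log2) and the transporter Slc1a3 (-1.28) and the water channel Aqp4 (-0.88) lower. The transporter Slc1a2 was near the floor in both. Markers of other cells were present in astrocyte cultures: microglia and macrophage markers summed to 5674, 6547, 7253 and 3915 over 8 genes at 0, 1, 10 and 100 µg/ml, against 814 to 1180 in neuron cultures. Fibroblast and meningeal markers summed to 42911 to 52099 over 8 genes, against 8131 to 9966, and oligodendrocyte markers to 8828 to 14099 over 7 genes, against 2284 to 2403. Endothelial and pericyte markers were low in both (219 to 312 over 5 genes, against 386.5 to 551). In cultures of mixed cells, more RNA per cell and more cells of a type cannot be told apart.

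Nfkbia, which encodes the inhibitor that retains NF-kB in the cytoplasm, was among the genes with the largest increases at 10 µg/ml. In astrocytes its brighter probe set (X63594cds_g_at) measured 668, 993, 4036 and 7897 at 0, 1, 10 and 100 µg/ml, and in neurons 1273, 1514 and 1180 at 0, 1 and 10 µg/ml. The other probe set (X63594cds_at), made from the same sequence record, had 256, 326, 1724.5 and 3849 in astrocytes and 421, 535 and 373 in neurons. With both probe sets the astrocyte signal was highest at 100 µg/ml, next at 10 µg/ml, and at 0 and 1 µg/ml it lay below every neuron signal. At 10 µg/ml the signal was 6.04-fold and 6.74-fold that of untreated astrocytes, ranks 35 and 29 of 4252 probe sets ordered from the largest increase. At 100 µg/ml the increase was 3.82 and 4.17 log2 relative to the median, ranks 56 and 49.

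Nfkb1 encodes the precursor from which an NF-kB subunit is cut, and was represented by 1 probe set (L26267_at). Its signals were 2157, 2099, 5534 and 4096 in astrocytes at 0, 1, 10 and 100 µg/ml and 2681, 2432 and 2482 in neurons at 0, 1 and 10 µg/ml. The highest array was thus astrocytes at 10 µg/ml, not at 100 µg/ml. The signal at 10 µg/ml was 2.57-fold that of untreated astrocytes (rank 109 of 4252), and at 100 µg/ml the change was 1.19 log2 relative to the median (0.93 as deposited, under 2-fold). Scaled to the spike-ins the changes were 0.43 and -0.47 log2, so the sign at 100 µg/ml turned on that scale.

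Among the C/EBP genes, Cebpb, whose product binds the promoters of interleukin 6 and acute-phase genes, had the largest change. Its brighter probe set (X60769mRNA_at) gave 246, 367, 1445 and 3790 in astrocytes at 0, 1, 10 and 100 µg/ml and 445, 456 and 501 in neurons at 0, 1 and 10 µg/ml. Untreated astrocytes were the lowest of the 7 arrays and the 2 higher astrocyte doses lay above every neuron array. The signal at 10 µg/ml was 5.87-fold that of untreated astrocytes (rank 36 of 4252), and the change at 100 µg/ml was 4.21 log2 relative to the median (rank 48). The dimmer probe set (S77528cds_s_at) lay under the floor of 17.9 on 5 of the 7 arrays, with 6.6, 5.1, 50.3 and 330.1 in astrocytes and 5.5 to 9.0 in neurons. Against untreated astrocytes, on the deposited scale, it was higher by at least 2.81-fold at 10 µg/ml. At 100 µg/ml it was at least 18.4-fold higher. It did not pass the filter on low signals and is in no count below.

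Cebpd, a C/EBP gene of the acute-phase response, had 3 probe sets that disagreed. The brightest (M65149_at) had signals of 1829, 1732, 2032 and 2378 in astrocytes at 0, 1, 10 and 100 µg/ml and 2366, 2343 and 2373 in neurons at 0, 1 and 10 µg/ml, a nearly flat series. A second (rc_AI045030_s_at) had 403, 326, 398 and 916 in astrocytes and 465, 373 and 379 in neurons, with the astrocyte array at 100 µg/ml well above the others. The third (rc_AA946292_at) stayed between 123 and 183 on all arrays. Relative to the median the changes at 100 µg/ml were 0.64, 1.44 and 0.30 log2, and scaled to the spike-ins all 3 were negative (-1.02, -0.21 and -1.36). No direction can be given for Cebpd from these probe sets. Cebpa, a C/EBP gene best known from fat, liver and myeloid cells, gave almost no signal. Its probe sets (rc_AI236300_at and X12752_at) lay between 7.3 and 31.8 over all arrays, and each was under the floor on 5 or 4 of them, so no fold is given.

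Zfp36, the gene of tristetraprolin, varied with dose in astrocytes and had its lowest signals on the brighter probe set in neurons. Its brighter probe set (rc_AA800613_at) had signals of 934, 1136, 2903 and 7059 in astrocytes at 0, 1, 10 and 100 µg/ml and 524, 529 and 461 in neurons at 0, 1 and 10 µg/ml. Every astrocyte array lay above every neuron array. The signal at 10 µg/ml was 3.11-fold that of untreated astrocytes (rank 76 of 4252), and the change at 100 µg/ml was 3.18 log2 relative to the median (rank 73). The other probe set (X63369cds_at) had 337, 276, 554 and 1648.5 in astrocytes and 347, 348 and 338 in neurons, so that untreated cultures of both types were nearly equal on it. It was 1.65-fold higher at 10 µg/ml than in untreated astrocytes and 2.55 log2 higher at 100 µg/ml relative to the median. Scaled to the spike-ins its change at 10 µg/ml was -0.21 log2, while the brighter probe set kept a positive value of 0.71.

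Birc3, which encodes a ubiquitin ligase that NF-kB induces and that restrains cell death, was not measured. The probe set of its neighbour in the family, Birc2, was under the floor on all 7 arrays (2.4 to 6.1).

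**Figure D1:**
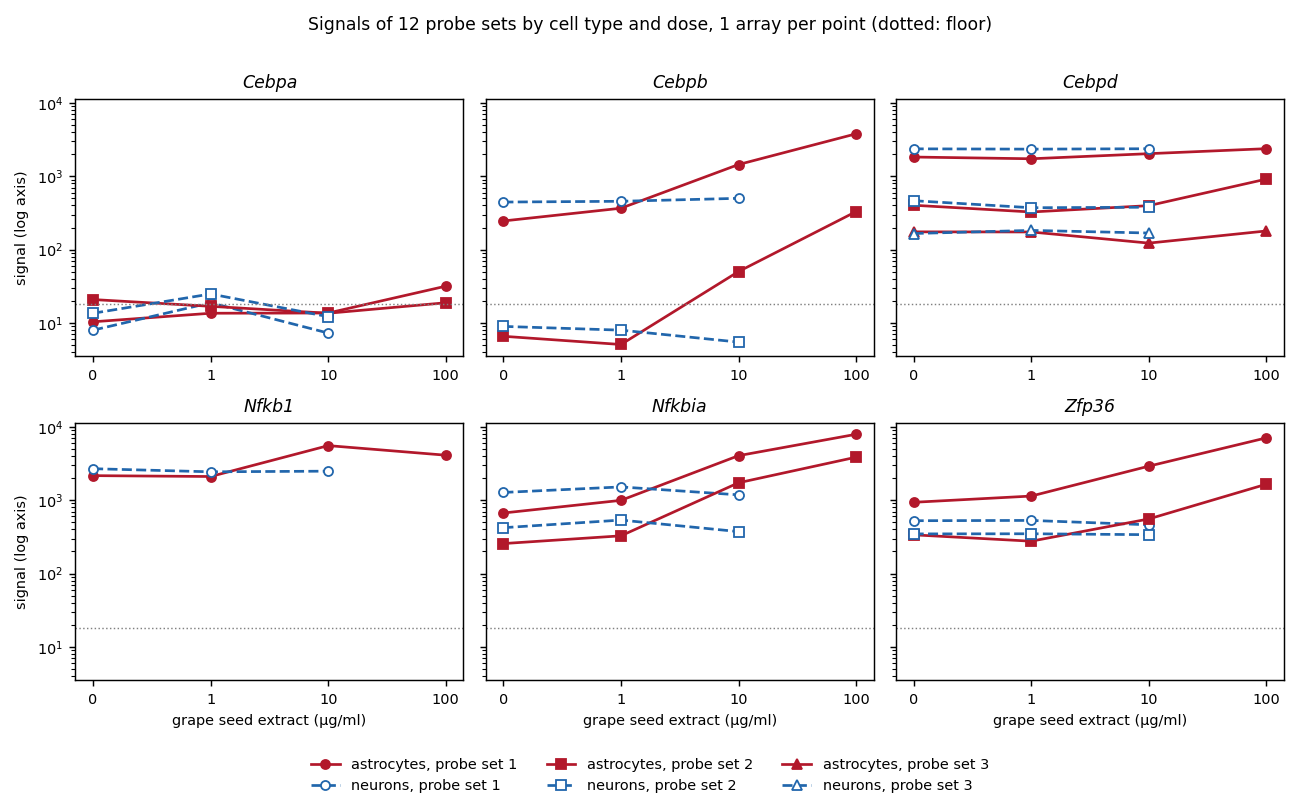
Signals (log axis) of the 12 probe sets against the dose of extract in µg/ml. Red lines and filled symbols are astrocytes, blue dashed lines and open symbols neurons, each point is 1 array, probe sets are numbered from the brightest and the dotted line is the floor of 17.9. Astrocyte lines for Cebpb, Nfkbia and Zfp36 climb at 10 and 100 µg/ml, that of Nfkb1 is highest at 10 µg/ml, and neuron lines stay nearly level.

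Of the 12 probe sets, 9 (for 5 genes) passed the filter on low signals in astrocytes, a mean log2 signal there above that of the median signal, 79.9. A probe set can pass it through its high arrays alone. None of the 9 was 2-fold changed at 1 µg/ml, where 1.03% of 4252 probe sets were at least 2-fold higher and 0.964% at least 2-fold lower. Cebpb and the brighter Nfkbia probe set were 1.49-fold higher there (0.58 and 0.57 log2, ranks 203 and 205 of 4252), and the other Nfkbia probe set 0.35 log2. Over all probe sets the SD was 0.37 log2 and the 95th percentile 0.56. With 1 array per dose, changes of this size cannot be told from the variation between arrays. At 10 µg/ml 5 of the 9 (for Cebpb, Nfkb1, Nfkbia and Zfp36) were at least 2-fold higher, beside 4.3% of all probe sets. At 100 µg/ml 6 were, beside 6.63% (7, beside 9.41%, relative to the median). None was 2-fold lower at either dose, beside 2.21% at 10 and 19% at 100 µg/ml. The median of the 9 was 1.36 log2 at 10 µg/ml, beside -0.10 over all probe sets, and 2.29 at 100 µg/ml, beside -0.26, both as deposited. These contrasts were in view when the genes were chosen, so the shares support nothing about them. All use the same untreated array.

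**Figure D2:**
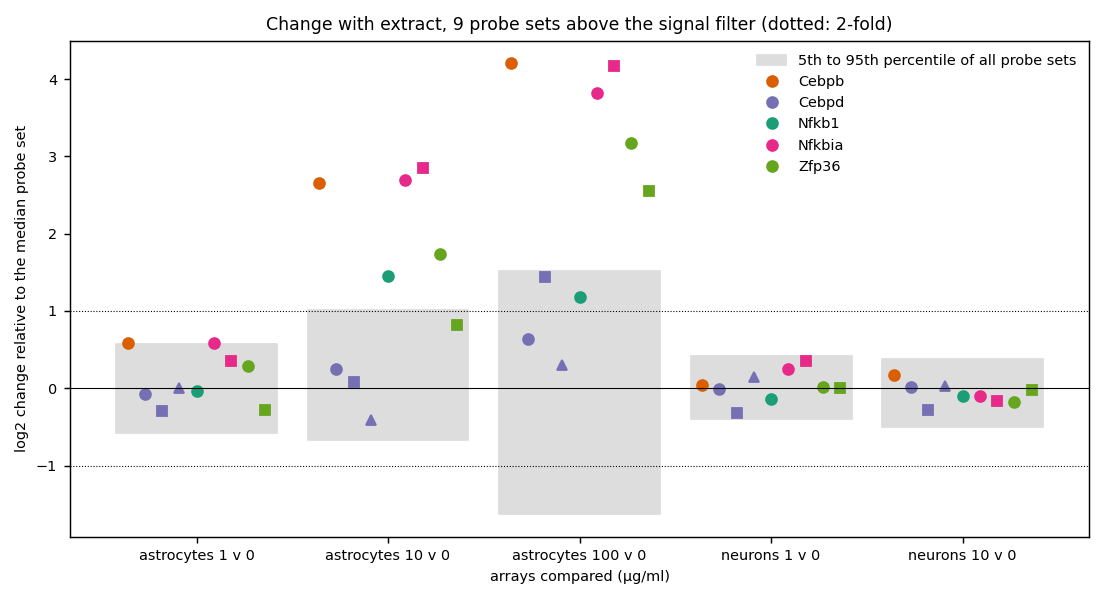
Log2 change with extract relative to the median probe set of each comparison, for the 9 probe sets above the signal filter. Symbols of 1 colour are probe sets of 1 gene (circle, square, triangle from the brightest), grey bars span the 5th to 95th percentile of all probe sets tested, and dotted lines mark 2-fold. Cebpb, Nfkbia and Zfp36 stand above the bar at 100 µg/ml, and in neurons every symbol stays inside it.

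The step between the highest doses differed among these genes. Relative to the median change between those arrays (-0.18 log2), the signal at 100 µg/ml set against 10 µg/ml was 1.57 log2 higher for Cebpb, 1.14 and 1.33 for the Nfkbia probe sets, 1.46 and 1.75 for those of Zfp36 and 1.38 for the second Cebpd probe set. The brightest and the third Cebpd probe sets lay between, at 0.40 and 0.73. For Nfkb1 it was -0.26, against an SD of 0.91 log2 over all probe sets. As deposited, 5 of the 9 probe sets were at least 2-fold higher in this step and none lower, beside 5.1% and 16% of all probe sets (6, beside 6.84%, relative to the median). Microglial markers went the other way as a sum (3915 at 100 µg/ml, against 7253 at 10 µg/ml). Of the 5 that passed the filter 4 were lower in this step, such as Aif1, a defining microglial gene (251 against 1426), and 1 was higher, Fcgr2b (1162 against 618). Itgam and Csf1r, which also define these cells, were at or near the floor on all arrays (1.1 to 29.0). The part of microglia in these values was not tested.

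Scaling to the spike-ins lowered every astrocyte change, and it was chosen after the data were seen. On that scale Cebpb and the brighter Nfkbia probe set were still 1.63 and 1.67 log2 higher at 10 µg/ml than in untreated astrocytes, and 2.55 and 2.17 higher at 100 µg/ml. The brighter Zfp36 probe set was 1.52 higher at 100 µg/ml. Genes at least 2-fold higher at 10 µg/ml were then 2 of 5, beside 1.36% of all probe sets on that scale, against 4 of 5 as deposited. At 100 against 10 µg/ml none of the 5 was by its brightest probe set, beside 2.38%. The other Zfp36 probe set was 1.02 log2 higher in that step on the spike-in scale.

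**Figure D3:**
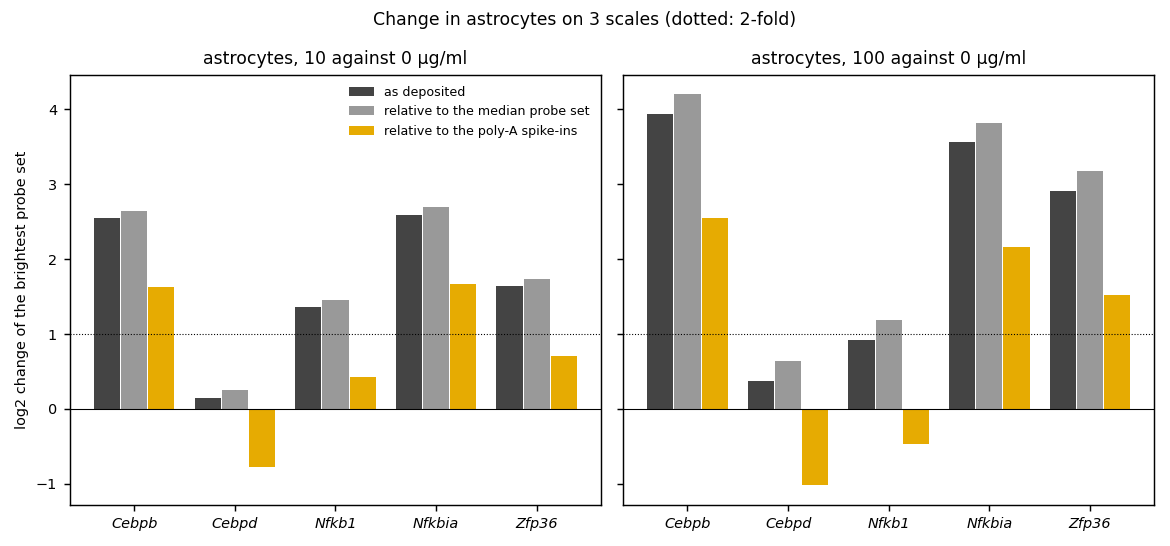
Log2 change in astrocytes at 10 (left) and 100 µg/ml (right) against 0 µg/ml for the brightest probe set of 5 genes. Bars start at 0 and show the deposited scale, the change relative to the median probe set and the change relative to the poly-A spike-ins. Cebpb, Nfkbia and Zfp36 are positive on all 3 scales, while Nfkb1 at 100 µg/ml and Cebpd at both doses turn negative on the spike-in scale.

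In neurons the same 9 probe sets passed the filter, and none was 2-fold changed at 1 or 10 µg/ml. The shares over 4453 probe sets were 0.269% higher and 0.292% lower at 1 µg/ml, and 0.292% and 0.472% at 10 µg/ml. The highest neuron signal of a probe set was 1.01 to 1.44 times the lowest. The widest range was that of the dimmer Nfkbia probe set, 1.27-fold higher at 1 µg/ml than in untreated neurons and 0.885-fold at 10 µg/ml. Nfkb1 was 0.907-fold and 0.926-fold at these doses and Cebpb 1.02-fold and 1.12-fold. Over all probe sets the SD of the change was 0.26 log2 at 1 and 0.28 log2 at 10 µg/ml. With 1 array per dose, differences of this size cannot be told from the variation between arrays.

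At shared doses the order of the cultures depended on the dose. Without extract, the signal of Nfkbia was 668 in astrocytes and 1273 in neurons (-0.93 log2), and that of Cebpb 246 and 445 (-0.86 log2). Nfkb1 stood at 2157 and 2681 (-0.31 log2), and the brighter Zfp36 probe set was higher in astrocytes (0.83 log2). The dimmest Cebpd probe set differed by 0.08 log2. At 10 µg/ml the astrocyte signal was 3.42-fold that of neurons for the brighter Nfkbia probe set, 2.89-fold for Cebpb, 2.23-fold for Nfkb1 and 6.30-fold for the brighter Zfp36 probe set but 1.64-fold for the other. Over 0, 1 and 10 µg/ml, Nfkbia averaged 1899 ± 1858 in astrocytes and 1322 ± 172 in neurons (SD, n = 3 each), so the spread between astrocyte doses exceeded the difference. The cultures did not overlap in 2 of the 9 probe sets, the brightest of Zfp36 (higher in astrocytes) and of Cebpd (1864.5 ± 153 in astrocytes, 2361 ± 15.3 in neurons, n = 3 each), a smaller share than the 56.6% of 4709 probe sets that did not overlap.

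Likeness of pattern was measured as the root mean square difference of log2 signals over the 7 arrays, each probe set set to its own mean, among all filtered probe sets with 1 symbol. The gene closest to Nfkbia was Cebpb (0.20 log2), and the gene closest to Cebpb was Nfkbia. Next for both came Icam1, an adhesion molecule for leukocytes (0.23 from Nfkbia and 0.27 from Cebpb), with signals of 1830, 2016.5, 6358.5 and 16694 in astrocytes at 0, 1, 10 and 100 µg/ml and 2673, 2763 and 2204 in neurons. The lipoprotein receptor gene Olr1 (0.38 from Cebpb) and the nucleotide receptor gene P2ry2 (0.27 from Nfkbia) followed. Zfp36 was closest to Il1b, the gene of interleukin 1 beta, a cytokine (0.16), with 1420, 1701, 5766 and 12448 in astrocytes and 868, 868 and 936 in neurons. Fcgr2b, an antibody receptor of myeloid cells (0.26), and Cd40, a receptor of the tumour necrosis factor family (0.27), came next. Nfkb1 was closest to Abcb1b, a drug efflux transporter (0.14), with 451, 455, 1390 and 805 in astrocytes and 581, 457 and 464 in neurons, then to the cytokine receptor kinase Jak2 (0.15) and the peptidase Nln (0.21). The nearly flat Cebpd probe set was closest to Aimp2, Pafah1b2 and Gstm2 (0.05 to 0.07). The profiles share the same 7 arrays, so these distances are a description.

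**Figure D4:**
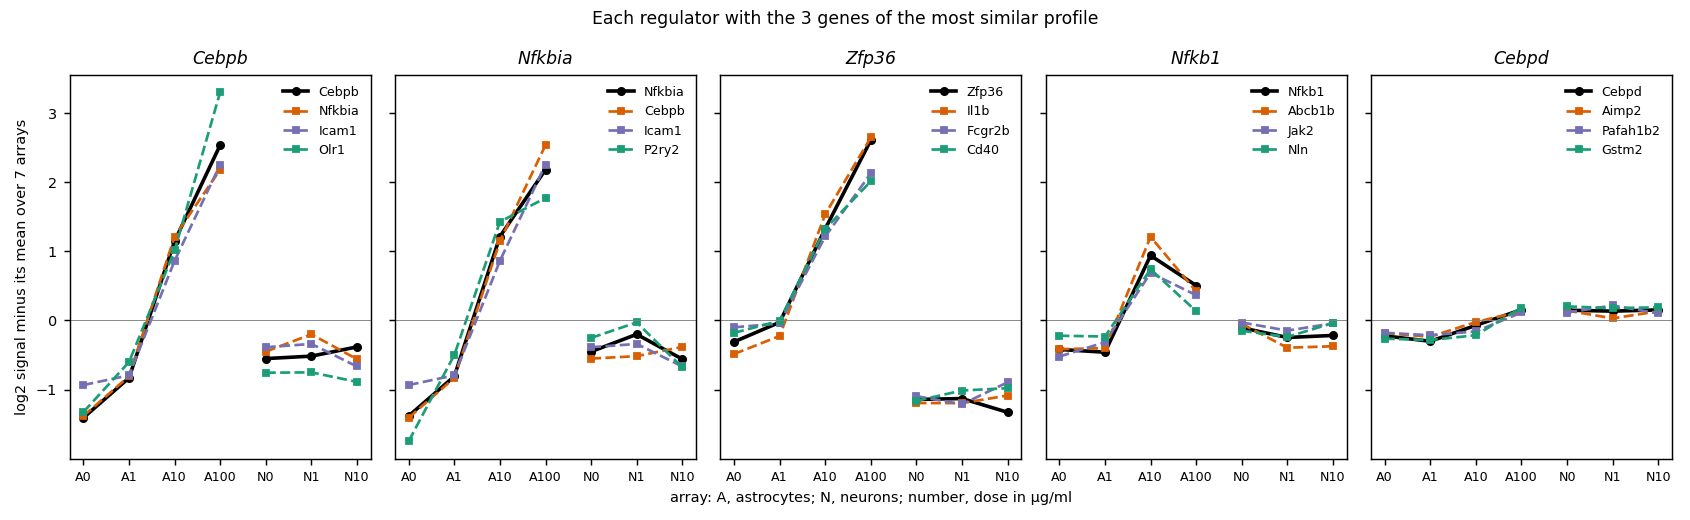
Log2 signal minus its mean over the 7 arrays for each regulator (black) and the 3 genes nearest to it in root mean square difference (coloured, dashed). The horizontal axis gives astrocyte arrays (A) and then neuron arrays (N) with the dose in µg/ml. Cebpb and Nfkbia climb through 10 and 100 µg/ml, whereas Nfkb1, Abcb1b, Jak2 and Nln are highest in astrocytes at 10 µg/ml.

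Of 118 other genes in 8 lists of the same pathways, 51 were on the array and 38 passed the filter in astrocytes. The lists were chosen with earlier results of these data known, so counts within them are a description. None of the other NF-kB subunit genes (Nfkb2, Rel, Rela and Relb) had a probe set. In the list of NF-kB feedback genes 1 of 2 was at least 2-fold higher at 10 µg/ml and 2 of 2 at 100 µg/ml (over all probe sets, 4.3% and 6.63%). They were Ier3, a stress-induced survival gene (2.08-fold at 10 µg/ml and 13.4-fold at 100 µg/ml), and Dusp1, a phosphatase of MAP kinases (1.31-fold and 38.1-fold), all as deposited. Scaled to the spike-ins, Dusp1 at 10 µg/ml turned negative (-0.54 log2). Of 2 kinases, Tbk1, an upstream kinase of interferon and NF-kB signalling, was 3.08-fold higher at 10 µg/ml but at 100 µg/ml changed by 0.12 log2 relative to the median and by -1.54 on the spike-in scale, and Map3k3 was lower at 100 µg/ml (-1.18 log2).

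Of 6 receptors and adaptors, 3 were at least 2-fold higher and 1 lower at 10 µg/ml, and 3 were higher and 2 lower at 100 µg/ml as deposited. Over all probe sets the shares were 4.3% higher and 2.21% lower at 10 µg/ml, and 6.63% and 19% at 100 µg/ml. On the spike-in scale 1 was higher and 2 lower at 10 µg/ml, and 1 higher and 3 lower at 100 µg/ml. Over all 4252 probe sets on that scale, 58 were higher and 2229 lower at 10 µg/ml, and 89 and 3529 at 100 µg/ml. Tnfrsf1b, among the higher ones, had an untreated signal of 63, under the filter, and passed it through its high arrays. Cd14, the lipopolysaccharide co-receptor, was 4.99-fold higher at 10 µg/ml and 2.85 log2 higher at 100 µg/ml relative to the median, and Cd40 was 2.84-fold and 2.45 log2 higher. Tlr4, the lipopolysaccharide receptor, measured 187, 117, 163 and 11.0 from the untreated array to the highest dose, the last under the floor, so it was at least 10.4-fold lower at 100 µg/ml as deposited. Tnfrsf1a, a receptor for tumour necrosis factor named after its values were seen, was lower at both doses (1480, 1803, 471 and 692).

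Of 4 other C/EBP or related leucine zipper genes, Atf3 and Ddit3, stress-induced partners of C/EBP factors, were 4.95 and 4.02 log2 higher at 100 µg/ml relative to the median, and 2.83-fold and 1.85-fold at 10 µg/ml, where Ddit3 was level on the spike-in scale (-0.04 log2). Dbp, a clock-controlled factor, stood at -0.59 log2 at 100 µg/ml. Another 3 genes of that list on the array did not pass the filter. In the list around Zfp36, its relative Zfp36l1 was 1.45 log2 higher at 100 µg/ml but -0.21 on the spike-in scale. As deposited, Hnrnpd and Mapkapk2 were under 2-fold at both doses. On the spike-in scale Hnrnpd stood at -1.17 and -1.41 log2 and Mapkapk2 at -0.35 and -1.41 at 10 and 100 µg/ml. Of 3 genes around the inhibitors of apoptosis, Bid was 2.76-fold higher at 10 µg/ml. At 100 µg/ml Bid was 0.70 log2 higher (-0.96 on the spike-in scale). Diablo and Bcl2l1 were under 2-fold as deposited. On the spike-in scale they stood at -1.14 and -1.02 log2 at 10 µg/ml and -1.41 and -1.35 at 100 µg/ml. Of 18 target genes of NF-kB and C/EBP, 16 were at least 2-fold higher at 10 µg/ml and 15 at 100 µg/ml (over all probe sets, 4.3% and 6.63%), with medians of 2.90 and 4.66 log2 as deposited, and none was 2-fold lower. For 5 of the 18 (Il6, Tnf, Ccl5, Ptgs2 and Csf3) the untreated signal was under the filter, so that they passed it through their high arrays and the count is partly fixed by the filter. The list was also chosen with earlier results of these data known, so these shares support nothing about its genes. On the spike-in scale 13 and 14 were 2-fold higher and, at 100 µg/ml, 2 lower. Of all 4252 probe sets on that scale 58 and 89 were higher and, at 100 µg/ml, 3529 lower. The cytokine gene Il6 (10.09 log2 relative to the median), the prostaglandin synthase gene Ptgs2 (at least 7.83) and the growth factor gene Csf3 (at least 7.65) changed most at 100 µg/ml. The untreated signal of Il6 was 19.6, just above the floor of 17.9, so the size of its change is uncertain too. In neurons, 35 of the 51 passed the filter and none was 2-fold changed at either dose as deposited. Few of all 4453 probe sets were either: 0.269% higher and 0.292% lower at 1 µg/ml, and 0.292% and 0.472% at 10 µg/ml.

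The lists were also compared between cultures with limma, over 3 astrocyte and 3 neuron arrays at 0, 1 and 10 µg/ml, where 19.3% of 4709 probe sets were higher and 25% lower in astrocytes at an adjusted p below 0.05. Of 42 list genes tested, 9 were higher and 5 lower in astrocytes, and they were named after their values were seen. Among 7 receptors and adaptors 3 were higher and none lower: Tlr4 by 2.15 log2 (adjusted p = 0.000583), Tnfrsf1b by 1.56 (0.0299) and Cd40 by 1.43 (0.0169). A probe set was tested if it passed the filter in either cell type. Tlr4 and Tnfrsf1b passed it in astrocytes only, so the direction of their calls was partly fixed by the filter. The other higher ones were Map3k3 (1.02 log2), Ier3 (1.00), Ddit3 (1.11), Dbp (0.69), Bid (1.15) and Il1b (1.43). Hnrnpd was lower in astrocytes (-0.76 log2), as were 4 of 21 target genes. These were Lcn2, an iron-binding acute-phase protein (32.9 ± 36.4 in astrocytes and 688 ± 63.2 in neurons, SD, n = 3 each, and -4.58 log2 with limma's adjusted p = 0.000311), C3, the central complement protein (-1.31), Nos2 (-1.53) and Hp (-0.76). Lcn2, Nos2 and Hp passed the filter in neurons only, so the direction of these calls too was partly fixed by it. Arrays of different doses stand in for replicates here, so these p-values measure the spread between doses of a culture as well as that between arrays.

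**Figure D5:**
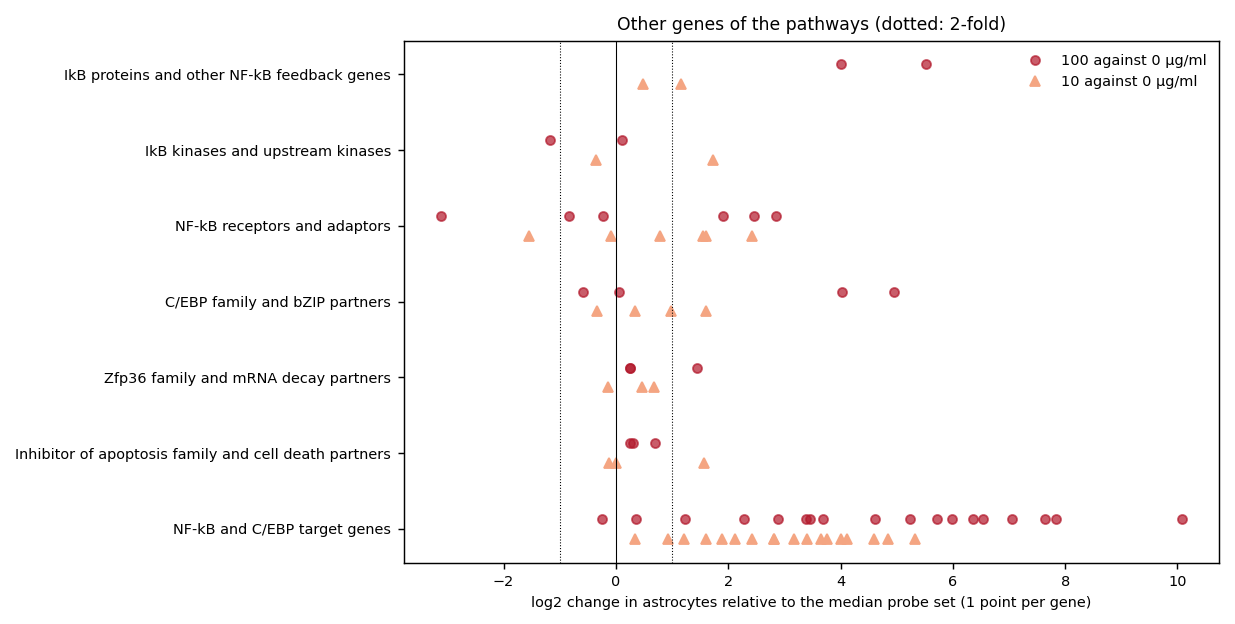
Log2 change in astrocytes relative to the median probe set, 1 point per gene above the signal filter, for 7 lists of other pathway genes (the list of NF-kB subunits had none on the array). Circles are 100 against 0 µg/ml, triangles 10 against 0 µg/ml, and dotted lines mark 2-fold. Target genes lie mostly to the right of the upper line at both doses, while the receptor list spreads to both sides.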

How the data were processed

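Per the labels' protocols, total RNA was isolated with a silica membrane, and 100 ng was amplified and biotin-labelled in 2 cycles. The deposited values are signal intensities on a linear scale, computed per array with GCOS, per the submitters' processing notes. The GCOS version is not given in the sources used here. Of 8799 probe sets, 59 controls were left out. Symbols came from the platform annotation (7006 probe sets with 1 symbol) and RefSeq. Signals were raised to their 25th percentile (17.9) before log2. A probe set entered a comparison if its mean log2 signal in the cell type lay above the overall median (79.9). Between cell types it entered if this held in either. A gene was represented by its brightest probe set. Cell types were compared with limma 3.58.1 in R 4.3.3 (trended prior, two-sided, Benjamini-Hochberg, threshold 0.05), tested on simulated data. Treated and untreated arrays were compared as log2 changes without a test, and 2-fold changes were counted.

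The genes, lists and alternatives were chosen with earlier results of these data known. The text names every probe set of the genes described, from each list the 3 filtered genes that changed most in astrocytes at 100 µg/ml plus any 2-fold changed at 10 µg/ml where 3 or fewer were, and the 3 nearest profiles. Other list genes were named after their values were seen. Alternatives were quantile normalization, centring, other floors and filters, averaged probe sets, other references, a constant prior, dose as a block, all 7 arrays and leaving out arrays, with spike-in scaling added after seeing the data. Promoter sequences are RefSeq's, build GRCr8. Python 3.11.15 was used, with matplotlib 3.10.9 for figures.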

Additional observations from a re-analysis of the deposited data

How the results depend on the processing

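The counts of genes described here at 2-fold or more stayed within 1.5 times of the reported ones under quantile normalization, centring, both other floors, averaged probe sets and the lower doses as reference. Scaled to the spike-ins, by brightest probe set, 2 of 5 were 2-fold higher at 10 µg/ml and 0 of 5 at 100 against 10 µg/ml. That scale lowers every change in these comparisons alike. The other Zfp36 probe set stayed 1.02 log2 higher at 100 against 10 µg/ml. Counts over all probe sets moved with the filter: with none they were 466, 728 and 1805 in astrocytes at 1, 10 and 100 µg/ml, 1463 at 100 against 10 µg/ml, and for neurons 355 (1 µg/ml) and 357 (10 µg/ml), and with the 75th percentile 22, 115, 416, 324, 0 and 1. On the spike-in scale they were 2287 and 3618 at 10 and 100 µg/ml, 1592 at 100 against 10 µg/ml, and 220 and 170 in neurons. Of calls at 100 µg/ml, 25.9% were higher as deposited, 41.1% after centring, 40.7% after quantile normalization and 2.46% on the spike-in scale. At 100 against 10 µg/ml these shares were 24.1%, 35.5%, 39.0% and 6.34%. At 10 µg/ml they were 66.1%, 74.1%, 70.2% and 2.54%, and at 1 µg/ml 51.8%, 53.4%, 60.9% and 14.7%. In neurons the deposited and spike-in shares were 48.0% and 98.2% at 1 µg/ml and 38.2% and 2.35% at 10 µg/ml. Limma's 2086 calls between cultures became 1286 with the stricter filter, where fewer probe sets were tested, and 1564 to 2251 when 1 array was left out. With dose as a block there were 1871. The labels give no replicate numbers, so dose is the only pairing of the arrays. Signals under the floor limit Cebpa and the dimmer Cebpb probe set to bounds.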

Other observations

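Some other pathway genes shared with Nfkb1 a higher astrocyte signal at 10 than at 100 µg/ml, and were picked out after their values were seen. Vcam1, an adhesion molecule, had 827, 1559, 5461 and 1609 at 0, 1, 10 and 100 µg/ml. Cxcl10, a chemokine induced by interferon, had 332, 547, 8879 and 3556, and Tbk1, a kinase upstream of interferon genes, 218, 418, 672.5 and 197. On the spike-in scale Vcam1 and Tbk1 were below untreated astrocytes at 100 µg/ml (-0.44 and -1.54 log2). Bid, a death promoter of the Bcl2 family, had 296, 294, 817 and 401.5. As deposited, 15 of the 38 list genes were at least 2-fold higher at 100 than at 10 µg/ml (39.5%, beside 5.1% of all probe sets) and 7 lower (18.4%, beside 16%). Relative to the median change between these arrays 15 were higher and 4 lower, beside 291 and 528 of all 4252 probe sets. Scaled to the spike-ins, 13 were higher and 11 lower. Il6, Tnf, Ptgs2 and Csf3, among the higher ones, passed the filter through their high arrays. The lists were chosen with earlier results of these data known, so these shares support nothing about them.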
